A study of Mus musculus with 6 samples.

Results

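Transcripts of the unfolded protein response and the integrated stress response were measured in MC38 tumors by bulk RNA-seq. The 10 genes described were taken by name from the 33965 genes of the table, and all 10 were found and tested: Hspa5, Ddit3, Atf4, Atf3, Xbp1, Trib3, Asns, Chac1, Herpud1 and Dnajb9. The MC38 line derives from a colon carcinoma of the mouse and was grown here under the skin of C57BL/6 mice. In 3 tumors the host had received PBS, and in the other 3 it had received GB2. In this prodrug artesunate, which inhibits TREM2, is tied to the STING agonist MSA-2 by a disulfide bond that glutathione opens. Apart from the injected agent, the labels give both groups the same tumor line, host strain and site. The labels do not say whether each tumor came from a mouse of its own, so the p-values below measure the spread between these samples.

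Proteins that fold badly in the endoplasmic reticulum (ER) are sensed by IRE1, ATF6 and PERK. IRE1 splices the mRNA of XBP1, ATF6 is cleaved into a transcription factor, and PERK phosphorylates the translation factor eIF2 alpha. PKR, GCN2 and HRI phosphorylate the same factor on viral RNA, amino acid shortage or loss of heme, and together with PERK they form the integrated stress response, in which ATF4 is translated while most other mRNAs are not. ATF4 then acts on genes for amino acid supply, on DDIT3 (CHOP) and on the feedback genes of the response. Colon carcinomas are known to meet low oxygen and low nutrients, which engage these pathways. XBP1 splicing, phosphorylation and translation are not read by gene-level counts.

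The comparison of GB2 with PBS tumors asked whether these transcripts differed with treatment. None of the 10 was called, and the 2 groups overlapped for each of them. The levels of 9 genes were lower on average in GB2 tumors and Chac1 was slightly higher, with log2 fold changes (GB2 minus PBS) from -0.50 to 0.09. For 9 of the 10 genes the PBS group varied more than the GB2 group, as it did for 72.5% of all genes tested. Ddit3 was the exception. PBS tumor 1 had the most Hspa5, Atf4 and Ddit3 mRNA, and PBS tumor 3 had the most Asns, Herpud1, Trib3, Chac1, Dnajb9 and Atf3 mRNA. No GB2 tumor was the highest for any of the 10 genes. Over all genes tested, PBS tumor 1 was the highest for 31.8%, PBS tumor 2 for 11.6% and PBS tumor 3 for 16.7%.

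Total counts per library ran from 64764405 to 69878156 in the PBS group and from 81210553 to 83690056 in the GB2 group, and about 4 counts stood for 1 read pair. The member with the fewest reads was Chac1 in PBS tumor 1, with 77 read pairs and a counting error of 11.4%. At the other end, Hspa5 had at least 19286 read pairs in every tumor. In bulk tumors, fewer cells of a type and less RNA per cell cannot be told apart. Markers of host cells differed by type. All 11 macrophage markers had every GB2 tumor above every PBS tumor (8.61% of all genes tested did), with summed levels of 67.5 to 94.7 CPM (counts scaled to a common library size) in PBS and 264.2 to 363.2 CPM in GB2 tumors. The same held for all 9 fibroblast markers, at 316.1 to 554.8 CPM and 1056.9 to 1498.3 CPM, for 7 of 8 endothelial and for 4 of 5 tested neutrophil markers, and for 5 of 8 skeletal muscle markers. edgeR called 0 of the markers in these 5 lists at an adjusted p under 0.05, as of all genes. DESeq2 called 8 macrophage, 8 fibroblast, 4 endothelial, 3 neutrophil and 0 muscle markers, beside 385 of all 19602 genes tested. At an unadjusted p under 0.05 the numbers in edgeR were 11, 9, 7, 4 and 2 in that order, all higher in GB2 tumors, beside 4.69% of all genes. Of 8 tested T and NK cell markers, 2 were above and 6 below 0, with sums of 0.481 to 6.66 CPM in PBS and 0.881 to 4.48 CPM in GB2 tumors, and of 7 tested B and plasma cell markers 4 were above and 3 below 0. Epithelial markers were low throughout: Epcam, an adhesion molecule, was at most 1.01 CPM, and the 9 markers together gave 10.7 to 15.1 CPM. Of the 7 tested, 6 were above and 1 below 0. Every GB2 tumor was above every PBS tumor for 2 of them, beside 8.61% of all genes. At an unadjusted p under 0.05 in edgeR, 1 was higher, beside 4.69% of all genes. The share of MC38 cells was not measured. Plasma cells are rich in ER chaperones, and of their markers Jchain, Mzb1 and Derl3 were at most 0.823 CPM, while Sdc1, which epithelial cells also make, was at 43.7 to 73.3 CPM. The part of the cell mixture in the levels given here was not tested.

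The promoters of 6 of the 10 genes held letters of a known stress element within RefSeq's window of 250 bases before to 50 after the start site (GRCm38.p6), in which each member had 1 entry. The stretches are shown because the 5 members with the C/EBP-ATF composite had the same highest tumor, Asns only narrowly. The composite is the element read by ATF4 with a C/EBP partner. Capitals mark the matches, and the sequences run 5′ to 3′ on the strand of the gene. The ER stress element ERSE (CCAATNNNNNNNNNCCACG, searched on both strands like the others) is the site of ATF6 with NF-Y, and it lay at -65 to -47 from the start site of Hspa5, in chr2:34771985-34772083 on the plus strand.
Hspa5: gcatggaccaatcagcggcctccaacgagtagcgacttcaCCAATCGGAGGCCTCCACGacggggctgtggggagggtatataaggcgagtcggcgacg
Herpud1 held the compact form ERSE-II (ATTGGNCCACG) at -52 to -42 and the composite (TGATGNAA, here on the other strand) at -112 to -105, in chr8:94386277-94386427 on the plus strand.
Herpud1: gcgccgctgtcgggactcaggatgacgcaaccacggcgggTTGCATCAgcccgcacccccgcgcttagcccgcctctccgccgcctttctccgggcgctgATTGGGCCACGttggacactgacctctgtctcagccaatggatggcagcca
The composite also lay at -193 to -186 in Chac1 (chr2:119351009-119351096, plus strand), at -110 to -103 in Atf3 (chr1:191183396-191183483, minus strand) and at -23 to -16 in Asns (chr6:7693210-7693272, minus strand).
Chac1: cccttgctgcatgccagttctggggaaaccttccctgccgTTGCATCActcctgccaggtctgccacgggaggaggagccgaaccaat
Atf3: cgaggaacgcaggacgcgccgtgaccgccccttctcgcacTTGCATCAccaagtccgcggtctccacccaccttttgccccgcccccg
Asns: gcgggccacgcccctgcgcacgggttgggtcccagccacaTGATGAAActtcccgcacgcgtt
In Trib3 it lay just after the start site (chr2:152344031-152344054, minus strand).
Trib3: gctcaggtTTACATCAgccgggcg

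Of 32851 promoters in the RefSeq table, 0.119% held ERSE, 0.0365% ERSE-II and 3.97% the composite. The core of the XBP1 element UPRE (TGACGTGG, in 0.676% of promoters) and the cyclic AMP element CRE (TGACGTCA, in 1.79%) were found in no member's window. A match describes the letters of a window and is not a measured binding site.

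Hspa5 encodes BiP, the main chaperone of the ER and the classic readout of the ATF6 arm, and it was the most abundant of the 10 mRNAs. Its level was 2026.6, 1094.8 and 1410.8 CPM in PBS tumors 1, 2 and 3 and 1127.2, 1109.8 and 1225.4 CPM in GB2 tumors 1, 2 and 3. PBS tumors 1 and 3 were above all GB2 tumors, and PBS tumor 2 was below them. The log2 fold change was -0.39 (SE 0.25, 95% interval -0.97 to 0.19), and it did not pass the quasi-likelihood test of edgeR after Benjamini-Hochberg adjustment (adjusted p = 0.771, n = 3 and 3). None of the 10 genes did, against 0.0% of the 19602 genes tested, with adjusted p-values of the members from 0.715 to 0.984. Without PBS tumor 1 the log2 fold change of Hspa5 was -0.10. By DESeq2, which called 385 genes, 0 members were called as well, with a smallest adjusted p of 0.511. At an unadjusted p under 0.05, 1 member was found by edgeR and 1 by DESeq2, beside 1360 and 1774 of the 19602 genes tested. No member passed it with library sizes only, with limma on FPKM, without the low-count filter or with a replicate block. The same held without PBS tumor 1, GB2 tumor 1 or GB2 tumor 3. Without PBS tumor 2, 2 members passed it, beside 1508 of the 20608 genes tested in that fit.

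Atf4, the transcription factor of the integrated stress response, followed Hspa5 closely. It stood at 669.6, 346.9 and 466.6 CPM in the PBS tumors and 371.0, 328.1 and 355.4 CPM in the GB2 tumors. Again PBS tumors 1 and 3 were above the whole GB2 group, and PBS tumor 2 lay inside its range. The log2 fold change was -0.49 (SE 0.25, 95% interval -1.09 to 0.10, edgeR adjusted p = 0.757), and -0.20 without PBS tumor 1. Of the 165 genes of the lists used here other than itself, the one whose profile over the 6 tumors was most like that of Atf4 was Hspa5, with a root mean square difference of 0.078 on the centred log2 CPM scale. For Hspa5 the most alike was Serp1, an ER membrane protein that guards newly made chains, at 0.076. Candidates came only from these lists, so a most alike gene does not show shared control.

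Ddit3 encodes CHOP, the factor that links prolonged stress to cell death, and it was the member with the lowest unadjusted p. Its level was 103.3, 88.0 and 101.1 CPM in the PBS tumors and 54.8, 88.8 and 62.7 CPM in the GB2 tumors. GB2 tumors 1 and 3 were below all PBS tumors, and GB2 tumor 2 was just above PBS tumor 2. The log2 fold change was -0.50 (SE 0.21, upper end of the 95% interval at -0.003), with an unadjusted p of 0.049 and an adjusted p of 0.715 in the edgeR fit. Over all genes, 2.24% were lower in GB2 tumors at an unadjusted p under 0.05. No member also reached a fold change of 2, and over all genes the shares that did both were 0.918% for lower and 3.74% for higher genes. Ddit3 overlaps Mars1, the methionyl-tRNA synthetase, on the opposite strand. Mars1 had a mean count of 8113.7 against 6130.2 for Ddit3, and the sources used here do not state whether reads were counted by strand.

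Atf3, an early transcription factor of the response, was the least abundant member per transcript length, averaged over the 6 tumors. It was measured at 16.1, 16.5 and 31.6 CPM in PBS and 15.0, 23.6 and 17.0 CPM in GB2 tumors. PBS tumor 3 was the highest, followed by GB2 tumor 2, and the other 4 tumors lay between 15.0 and 17.0 CPM. On the log2 scale the groups differed by -0.21 (SE 0.32, edgeR adjusted p = 0.889), and by 0.19 without PBS tumor 3. Atf3 and Trib3 were each other's most alike gene among the 165, at a root mean square difference of 0.177.

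Xbp1, whose mRNA is the substrate of IRE1, was at 82.0, 119.7 and 116.7 CPM in PBS and 93.7, 80.2 and 108.5 CPM in GB2 tumors. PBS tumors 2 and 3 were the highest, while PBS tumor 1 lay among the GB2 tumors. Its log2 fold change of -0.17 (SE 0.21) had an edgeR adjusted p of 0.859, and it ran from -0.32 without PBS tumor 1 to -0.07 without GB2 tumor 2. These counts join the spliced and unspliced forms. Its most alike gene was Sec61a1, the channel through which proteins enter the ER, at 0.108.

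Dnajb9 encodes ERdj4, a BiP co-chaperone made on the IRE1 arm. It was at 30.2, 27.9 and 36.3 CPM in PBS tumors and 30.5, 25.3 and 24.9 CPM in GB2 tumors. PBS tumor 3 was the highest, and GB2 tumor 1 lay within the PBS range. GB2 minus PBS gave a log2 fold change of -0.23 (SE 0.19, edgeR adjusted p = 0.803), and -0.10 without PBS tumor 3. Among the 165 list genes compared, the one most like Dnajb9 was Ssr2, of the secretory pathway list, at a root mean square difference of 0.142.

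Herpud1, an ER membrane protein that organises the degradation of misfolded proteins, had nearly equal group means but a wide PBS group. It was at 46.5, 80.9 and 126.7 CPM in PBS tumors and 84.7, 78.7 and 86.0 CPM in GB2 tumors. The GB2 tumors lay within a factor of 1.09 of each other and the PBS tumors within 2.72. The log2 fold change was -0.03 (SE 0.33, 95% interval -0.80 to 0.75, edgeR adjusted p = 0.984). Eif2ak3, which encodes the sensor PERK, had the profile most like that of Herpud1 (root mean square difference 0.088), at 44.1, 76.3 and 105.8 CPM in the PBS tumors.

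Chac1, which degrades glutathione and is a late target of ATF4 and ATF3, varied more than any other member. It was at 5.21, 13.8 and 38.7 CPM in PBS tumors and 17.9, 20.6 and 22.9 CPM in GB2 tumors. The 3 GB2 tumors lay between PBS tumors 2 and 3, and the highest PBS tumor exceeded the lowest by 7.43 times, against 1.28 times in the GB2 group. Its fitted log2 fold change was 0.09 (SE 0.61, 95% interval -1.34 to 1.52, edgeR adjusted p = 0.973). Without PBS tumor 3 it was 1.11, and without PBS tumor 1 it was -0.34. It was 0.60 by limma on log2(FPKM + 0.1), 0.50 on log2(FPKM + 1) and 0.53 with a replicate block.

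Trib3, a pseudokinase that damps ATF4 and CHOP, was at 53.7, 45.6 and 113.3 CPM in PBS and 50.9, 66.1 and 65.3 CPM in GB2 tumors. PBS tumor 3 stood alone above the other 5 tumors. Its log2 fold change was -0.22 (SE 0.34, edgeR adjusted p = 0.889), and it was 0.30 without PBS tumor 3.

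Asns, asparagine synthetase and a standard reporter of ATF4 activity, was among the steadiest of the set. It was at 185, 139.4 and 198.5 CPM in PBS and 151.1, 145.5 and 191.3 CPM in GB2 tumors. The groups covered nearly the same range. With GB2, the fitted log2 difference was -0.10 (SE 0.20, 95% interval -0.57 to 0.38, edgeR adjusted p = 0.911). Its most alike gene was Psat1, a serine synthesis enzyme that ATF4 also controls, at 0.107.

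**Figure D1:**
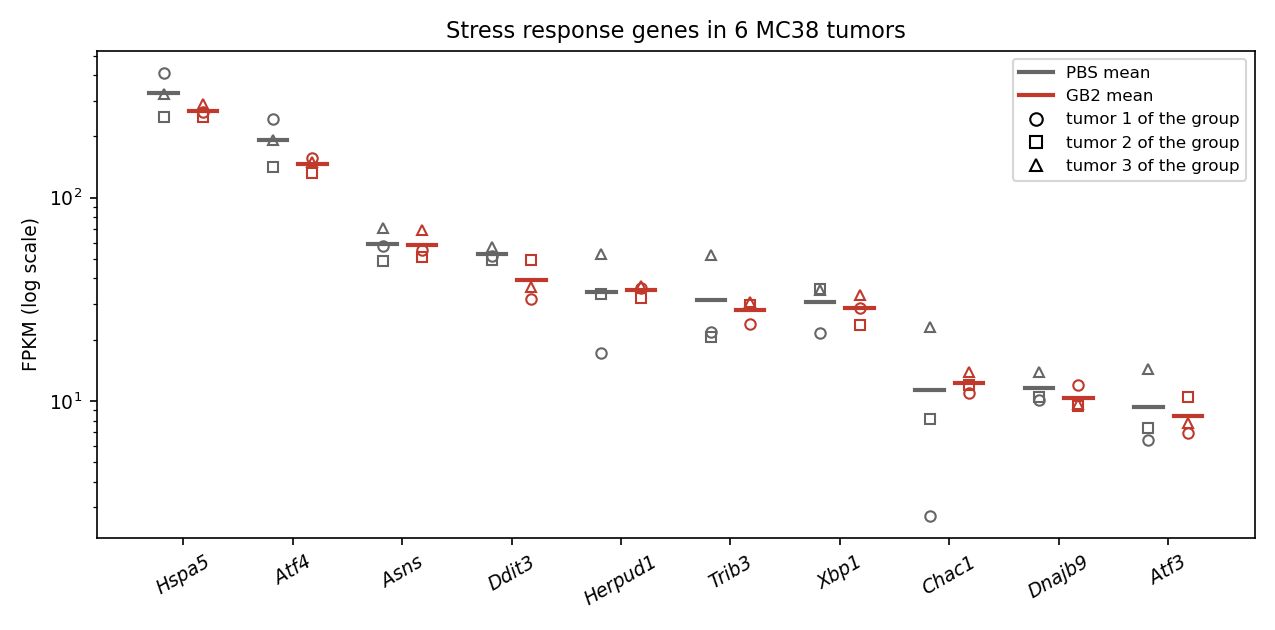
FPKM (fragments per kilobase of transcript, scaled to library size, log axis) of the 10 genes in each tumor, with PBS in grey, GB2 in red, bars for group means and symbols for the tumor's number within its group. Hspa5 and Atf4 stand above the rest, the groups overlap for each gene, and Chac1 spreads from 2.72 to 23.0 FPKM among the PBS tumors.

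Levels of different genes were compared per transcript length, as FPKM averaged over the 6 tumors. Hspa5 was at 297.9 FPKM and Atf4 at 169.4 FPKM, and the ranges of these 2 genes over the tumors did not overlap. Neither did those of Atf4 and Asns (58.8 FPKM). The next in order were Ddit3 (46.0 FPKM), Herpud1 (34.7), Trib3 (29.7) and Xbp1 (29.6), and then Chac1 (11.8), Dnajb9 (10.9) and Atf3 (8.87 FPKM). From Asns downward, the tumor ranges of each pair of neighbours overlapped.

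**Figure D2:**
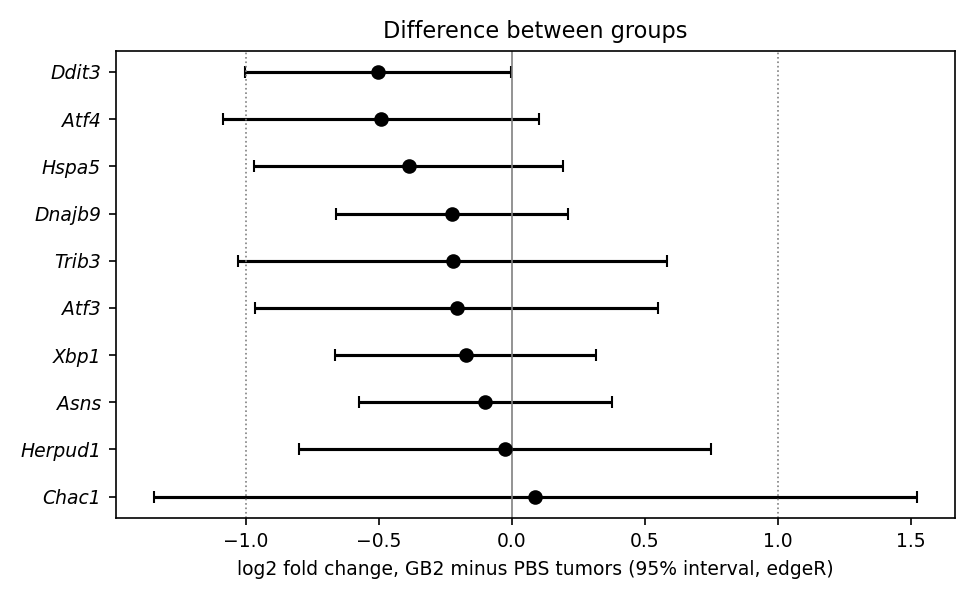
Log2 fold change of the 10 genes, GB2 minus PBS tumors, with 95% intervals from edgeR (n = 3 and 3) and dotted lines at a fold change of 2 in either direction. The intervals of 9 genes cover 0, that of Ddit3 ends at -0.003, and that of Chac1 is the widest.

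As a set, 9 of the 10 genes had a log2 fold change below 0 and the median was -0.21, beside 51.7% below 0 and a median of -0.02 over all genes tested. By limma on log2(FPKM + 0.1) and log2(FPKM + 1), 8 were below 0 and the medians were -0.085 and -0.082. The count depended on 1 tumor. Without PBS tumor 3, 5 of the 10 genes were below 0 and the median was -0.04, because Atf3, Trib3, Asns and Herpud1 turned positive. Of the 10 genes, 0 had every GB2 tumor below every PBS tumor and 0 had the reverse, while 6.68% and 8.61% of all genes did.

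Within the PBS group the 10 genes did not move as 1 block. As the level in PBS tumor 1 minus that in PBS tumor 3, the log2 difference was -2.89 for Chac1, -1.44 for Herpud1, -1.08 for Trib3, -0.97 for Atf3 and -0.51 for Xbp1. It was 0.52 for both Hspa5 and Atf4, the opposite sign, and 0.03 for Ddit3. These are differences between single tumors, with no test. The counting error of a gene in its lowest tumor was 11.4% for Chac1 and at most 6.49% for the other 9 genes.

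**Figure D3:**
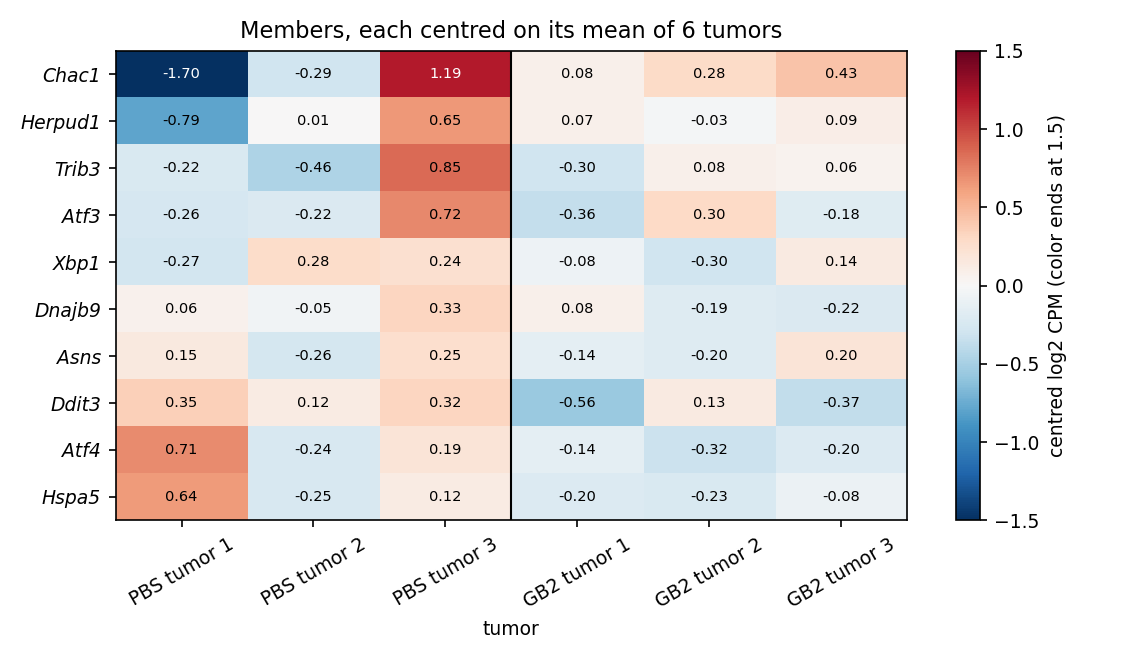
Log2 CPM of each gene in each tumor, centred on the gene's mean over the 6 tumors, with red for higher and blue for lower. Chac1, Herpud1, Trib3 and Atf3 run from low in PBS tumor 1 to high in PBS tumor 3, and Atf4 and Hspa5 are highest in PBS tumor 1. The GB2 columns are paler for most genes, but not for Ddit3.

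The 5 members with the C/EBP-ATF composite in the promoter window (Asns, Atf3, Chac1, Herpud1 and Trib3) were all highest in PBS tumor 3. For Asns this was by a narrow margin, at 198.5 CPM against 191.3 CPM in GB2 tumor 3. Of the 5 members without it, 1 was, namely Dnajb9. Of all genes tested with a promoter entry, 24.5% of the 364 with the composite and 16.9% of the 12294 without it were highest in PBS tumor 3. Among the 14 amino acid genes with an entry, the 4 with the composite (Pck2, Pycr1, Slc1a4 and Slc7a11) and 4 of the 10 without it were highest in that tumor. Among 8 tRNA synthetase genes with an entry, 5 held the composite and 2 of these were highest in PBS tumor 3, as were 0 of the other 3. Of the ATF4 regulators with an entry, 2 of 4 with the composite (50.0%) and 5 of 9 without it (55.6%) were highest there, the reverse order. In the eIF2 list the 1 gene with it was not highest in that tumor. The composite was noticed beside these profiles after the values were known, and the counts are a description.

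**Figure D4:**
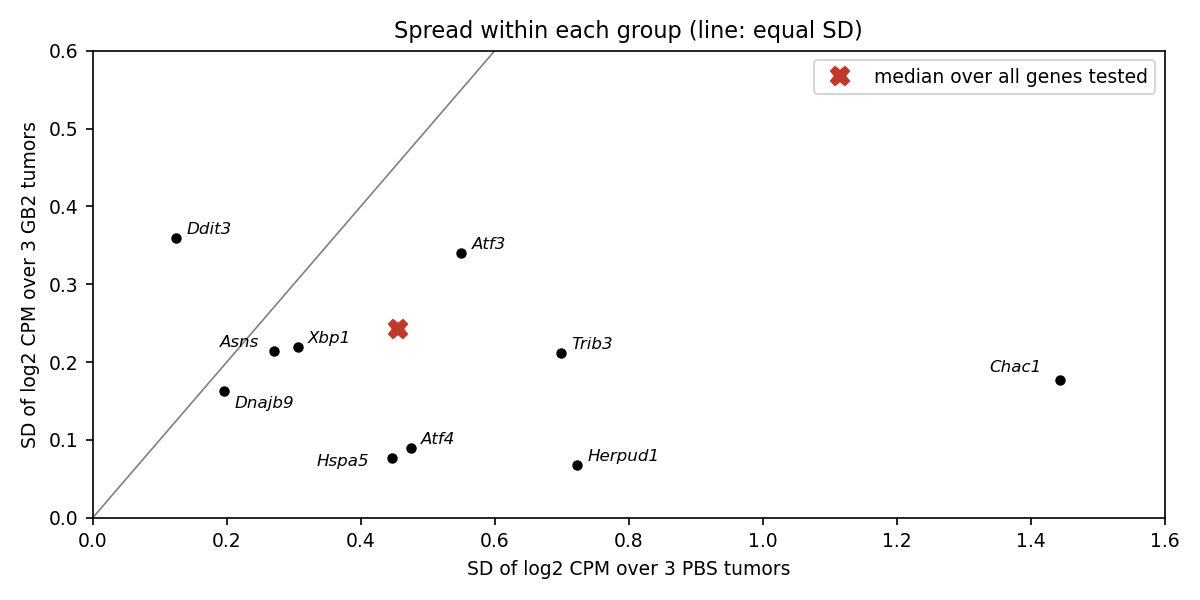
Standard deviation of log2 CPM over the 3 PBS tumors (x axis) and the 3 GB2 tumors (y axis) for each of the 10 genes, with the line of equal spread and the median of all genes tested as a cross. 9 of 10 genes lie below the line, Ddit3 lies above it, and Chac1 is farthest to the right.

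The spread was larger among PBS than among GB2 tumors for 9 of the 10 genes, the exception being Ddit3. The median SD of log2 CPM over the 10 genes was 0.46 in PBS and 0.20 in GB2 tumors. Over all genes tested, 72.5% had the larger SD in the PBS group and the medians were 0.46 and 0.24, so the direction was shared by most genes. Herpud1 had an SD of 0.72 in PBS and 0.07 in GB2 tumors, and Chac1 had 1.44 and 0.18. For Ddit3 the values were 0.12 and 0.36.

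The pathway around these genes was described through 10 lists with 157 other genes, of which 156 were tested. Of these, 47 had a log2 fold change above 0 and 109 below, with a median of -0.11. None was called by edgeR, the smallest adjusted p being 0.276. DESeq2 called 1, Jund, beside 385 of all 19602 genes tested. At an unadjusted p under 0.05, 10 genes (6.41%) were lower and 1 (0.641%) was higher in GB2 tumors, beside 2.24% and 4.69% of all genes. Every GB2 tumor was below every PBS tumor for 12 genes (7.69%) and above for 6 (3.85%), beside 6.68% and 8.61% of all genes.

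Of 14 genes for eIF2, eIF2B, the eIF2 alpha kinases and their phosphatase subunits, 5 were above and 9 below 0. Eif2ak2, which encodes the interferon-induced PKR, was the 1 gene of these 10 lists that was higher at an unadjusted p under 0.05. It was at 30.6, 33.1 and 40.4 CPM in PBS and 50.8, 58.6 and 53.1 CPM in GB2 tumors, with no overlap of the groups. The log2 fold change was 0.64 (SE 0.17, unadjusted p = 0.00682, edgeR adjusted p = 0.365). The other kinases differed less from 0: Eif2ak4 (GCN2) had a log2 fold change of 0.36, Eif2ak1 (HRI) of -0.09 and Eif2ak3 (PERK) of -0.03. Leaving out PBS tumor 1 brought Eif2ak4 to 0.17 and Eif2ak3 to -0.29, and leaving out PBS tumor 3 brought them to 0.55 and 0.29. The ER sensors Ern1 (IRE1 alpha) and Atf6 had log2 fold changes of 0.25 and -0.18, of which the first was 0.10 without PBS tumor 1 and the second 0.01 without PBS tumor 3, and Ern2 was too low to test. Ppp1r15a, the stress-induced subunit of the eIF2 alpha phosphatase (GADD34), was at 36.2, 29.6 and 44.8 CPM in PBS and 19.7, 30.6 and 30.8 CPM in GB2 tumors. Its groups overlapped (log2 fold change -0.45, SE 0.25, edgeR adjusted p = 0.757, and -0.26 without GB2 tumor 1 or -0.28 without PBS tumor 3), and its constitutive partner Ppp1r15b had a log2 fold change of -0.01.

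The 16 ATF4 targets of amino acid synthesis and transport had 7 genes above and 9 below 0, a median of -0.02 (0.33 without PBS tumor 3) and none past an unadjusted p of 0.05. Of the 16, 8 were highest in PBS tumor 3 and 11 were lowest in PBS tumor 1, beside 16.7% and 31.8% of all genes. Pycr1, a proline synthesis enzyme and the gene most like Chac1, was at 4.08, 13.2 and 34.1 CPM in PBS and 13.3 to 16.2 CPM in GB2 tumors. Slc7a11, the cystine importer, was at 3.62, 3.89 and 17.8 CPM in PBS and 6.27 to 10.9 CPM in GB2 tumors. The smallest p-values of this list belonged to the carriers or carrier subunits Slc3a2 and Slc38a2 and to the mitochondrial enzyme Pck2, with log2 fold changes of -0.19, 0.30 and -0.24. That of Slc38a2 was 0.09 without PBS tumor 1 and 0.57 without PBS tumor 3, and that of Pck2 was -0.49 and 0.35. Of the 12 tRNA synthetases, 4 were above and 8 below 0, and 8 (66.7%, beside 31.8% of all genes) were highest in PBS tumor 1. Cars, Gars and Sars had the smallest p-values, with log2 fold changes of -0.27, -0.47 and -0.27, which were -0.15, -0.07 and -0.06 without PBS tumor 1.

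Among 15 regulators and secreted factors under ATF4, 11 were below 0. Of these, 3 (Ddit4, Vegfa and Fgf21) passed an unadjusted p of 0.05, beside 2.24% of all genes that were lower at that level. Ddit4, the mTORC1 inhibitor REDD1, was at 184.9, 188.1 and 200.4 CPM in PBS and 127.6, 129.1 and 116.9 CPM in GB2 tumors. Every GB2 tumor was below every PBS tumor, with a log2 fold change of -0.62 (SE 0.15, unadjusted p = 0.0038, edgeR adjusted p = 0.294). By DESeq2 its adjusted p was 0.00146, and it was not called because the fold change was under 2. Vegfa, the vascular growth factor, had a log2 fold change of -0.67 (unadjusted p = 0.0213, edgeR adjusted p = 0.584), with GB2 tumor 2 just above PBS tumor 1. Both are also known targets of low oxygen. Fgf21, a secreted stress hormone, had a log2 fold change of -2.66 that fell to -0.65 without PBS tumor 3, where it was at 7.91 CPM against at most 0.913 CPM elsewhere.

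The 19 genes of the ATF6 arm and the ER chaperones had 15 below 0 and a median of -0.23, with none past an unadjusted p of 0.05. 12 of them (63.2%, beside 31.8% of all genes) were highest in PBS tumor 1, and without that tumor the median was 0.04. Hsp90b1 (GRP94), the ER form of HSP90, was at 2705.3, 1329.9 and 1209.9 CPM in PBS and 1268.8, 1262.9 and 1393.4 CPM in GB2 tumors. Pdia3, a disulfide isomerase, was at 1970.9, 712.4 and 644.6 CPM in PBS and 703.3 to 736.5 CPM in GB2 tumors. P4hb, another isomerase and the gene most like Ddit3, had a log2 fold change of -0.39 (SE 0.18, edgeR adjusted p = 0.757). Of the 19 genes it was the 1 with every GB2 tumor below every PBS tumor, beside 6.68% of all genes. The reverse held for 1 gene, beside 8.61% of all genes. Pdia6, also an isomerase, and the secreted ER protein Manf had log2 fold changes of -0.55 and -0.48, which were -0.01 and -0.09 without PBS tumor 1. Of 23 tested IRE1 and XBP1 genes of the secretory pathway, 17 were below 0 and 14 (60.9%) were highest in PBS tumor 1. Their median was -0.20, and -0.03 without that tumor. The translocon subunit Sec61g had a log2 fold change of -0.73, Ostc of the oligosaccharyltransferase -0.46 and the signal peptidase subunit Spcs2 -0.43, none past an unadjusted p of 0.05. Without PBS tumor 1 these were -0.24, 0.01 and 0.07.

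Of 19 genes of ER-associated degradation, 15 were below 0 and 2 passed an unadjusted p of 0.05, beside 2.24% of all genes lower at that level. Both are lectins that bind misfolded glycoproteins. Os9 had a log2 fold change of -0.54 (SE 0.21, edgeR adjusted p = 0.679) and Erlec1 of -0.54 (SE 0.18, edgeR adjusted p = 0.573), with every GB2 tumor below every PBS tumor for both. Derl2, a part of the exit channel, had -0.34. Without PBS tumor 1, Os9 was at -0.29 and Derl2 at -0.12. Every GB2 tumor was below every PBS tumor for 5 of the 19 genes and above for 0, beside 6.68% and 8.61% of all genes. Of 10 genes of CHOP-linked death, 6 were below 0. At an unadjusted p under 0.05, 2 of them (Bbc3 and Bax) were lower, beside 2.24% of all genes. Bax also reached a fold change of 2, beside 0.918% of all genes. Bbc3 (PUMA), an activator of mitochondrial death, had a log2 fold change of -0.65 (SE 0.27, edgeR adjusted p = 0.711), again with no overlap. Bax, the pore former, had -1.19, and without PBS tumor 1, at 309.8 CPM against 58.4 to 95.9 CPM elsewhere, it was -0.32. Tmbim6 (BI-1), an inhibitor of BAX, had -0.51, and -0.07 without that tumor. The cytosolic heat shock genes, a response separate from that of the ER, had 9 of 12 below 0, with Dnajb1 at a log2 fold change of -0.51 (edgeR adjusted p = 0.711), the mitochondrial chaperonin subunit Hspe1 at -0.73 and the HSP70 partner Bag3 at -0.25. Without PBS tumor 1 the last 2 were 0.07 and -0.13. Of 16 immediate early genes, 10 were below 0, and Jund, an AP-1 subunit, was at 112.6, 58.7 and 81.0 CPM in PBS and 32.7, 35.6 and 44.9 CPM in GB2 tumors. Its groups did not overlap, and the log2 fold change was -1.16 (SE 0.27, adjusted p = 0.276 by edgeR and 0.00996 by DESeq2). Nr4a1, a nuclear receptor of the same list, had -0.63 (edgeR adjusted p = 0.446). Fosl1 was at most 0.265 CPM in any tumor, and no fold is given for it.

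**Figure D5:**
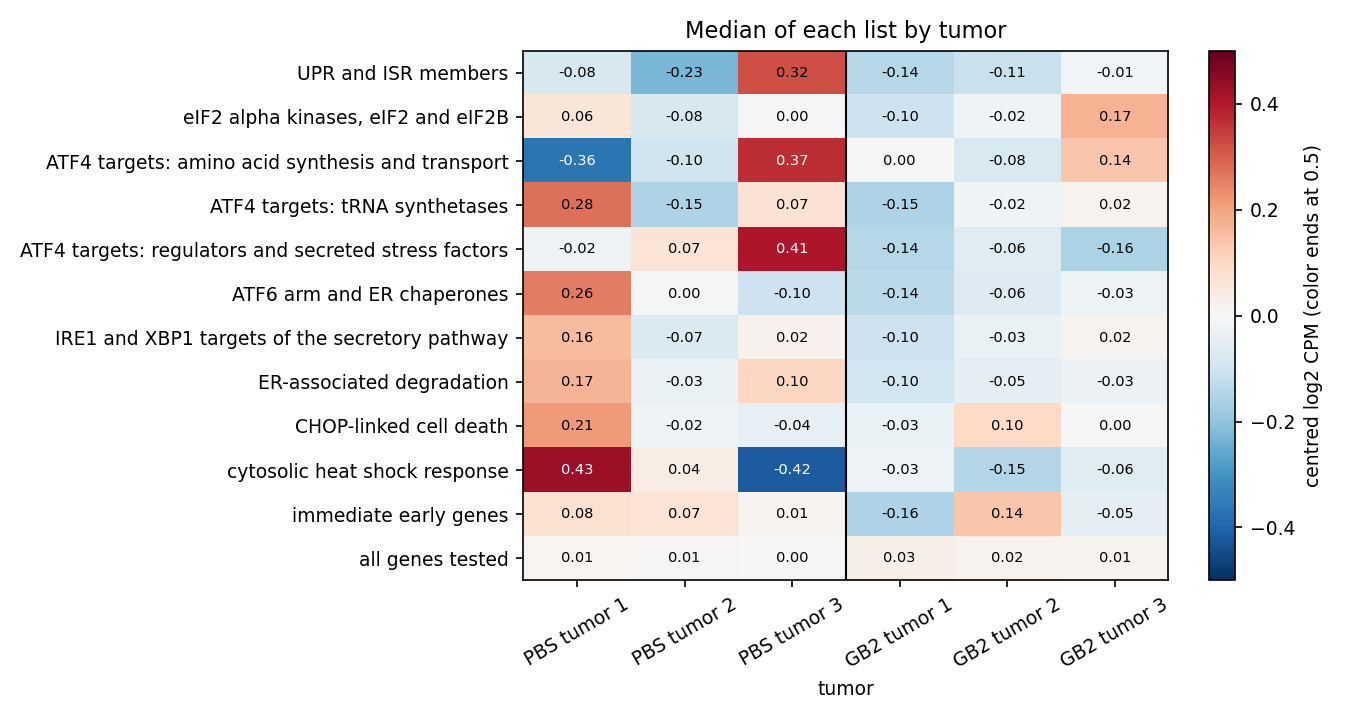
Median centred log2 CPM of each gene list in each tumor, with all genes tested in the last line. PBS tumor 3 is highest for the amino acid genes and the ATF4 regulators, and PBS tumor 1 for ER chaperones and heat shock genes.

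PBS tumors 1 and 3 thus differed by list. From PBS tumor 3 to PBS tumor 1, the median difference in log2 CPM was -0.80 for the amino acid genes, 0.36 for the ER chaperones and 0.97 for heat shock genes, and 0.04 over all genes. Other features of these tumors moved too. In PBS tumor 3 the summed adipocyte markers were at 15.3 CPM against 45.6 to 71.4 CPM in the other 5 tumors, and the T and NK cell markers were at 0.481 CPM against 0.881 to 6.66 CPM. For PBS tumor 1, the deviation of a gene from its mean ran with transcript length (r = -0.33 across 14122 genes, which are not independent replicates), where the other tumors had r from -0.05 to 0.17. The part of cell mixture, RNA quality or length in the differences between the PBS tumors was not tested.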

How the data were processed

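Poly-A selected, dUTP-stranded, paired-end libraries of 6 tumors were sequenced. The authors deposited 1 table with estimated counts and FPKM values per gene and tumor. Their processing notes name cutadapt 1.9, HISAT2 2.2.1, StringTie 2.1.6, DESeq2, edgeR and mm10, without roles or strand setting. The deposited counts are whole, unscaled and hold about 4 per read pair, and the deposited FPKM values are divided by transcript length and library size. Only 1.86% of 31999 gene IDs shared with a GRCm38 annotation had the same start and end, so the build of the table's positions is unclear and only RefSeq promoter positions (GRCm38.p6) are given.

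The counts were tested in R 4.3.3 with edgeR 4.0.16 (filterByExpr with a minimum count of 10, TMM, quasi-likelihood test, Benjamini-Hochberg adjustment over 19602 genes), with calls made at an adjusted p under 0.05 where the fold change reached 2. CPM are TMM-scaled, and centred values used a prior count of 2. The common dispersion was 0.164 (biological coefficient of variation 40.5%), which limits what 3 tumors per group can show. Intervals are 95%. Alternatives were DESeq2 1.42.0, limma 3.58.1 on log2(FPKM + 1) and log2(FPKM + 0.1), other scalings and filters, counts divided by 4, a replicate block and each tumor left out. The 10 genes, the lists and the motifs were chosen with earlier results of these data known. Named were, in each list, the 3 genes with the smallest p, all at p under 0.05, the sensors, the phosphatase subunits and, for each member, the gene with the smallest root mean square difference; Pycr1, Slc7a11, Slc1a4, Hsp90b1 and Pdia3 were chosen after their values were seen.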

Additional observations from a re-analysis of the deposited data

How the results depend on the processing

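No member was called under any setting tried, and over all genes edgeR and limma called 0, with 1360 genes at an unadjusted p under 0.05 in edgeR, while DESeq2 called 385. Members below 0 numbered 5 (without PBS tumor 3) to 10 when 1 tumor was left out, and their median ran from -0.33 to -0.04. Herpud1 turned positive with library sizes only (0.011), with limma on log2(FPKM + 0.1) (0.17) or log2(FPKM + 1) (0.16), and Eif2ak3 (0.006, 0.123, 0.106) and Ppp1r15b (0.056, 0.068, 0.066) did so under the same settings. Limma on log2(FPKM + 0.1) or log2(FPKM + 1) also brought Atf3 to -0.084 or -0.081, Xbp1 to -0.086 or -0.084, Trib3 to -0.035 or -0.037, Asns to -0.017 under both, Dnajb9 to -0.145 or -0.134, Fgf21 to -1.70 or -1.02, Pck2 to -0.009 or -0.023, Hspe1 to -0.429 or -0.425, Spcs2 to -0.249 or -0.245, Ostc to -0.29 or -0.283, Atf6 to -0.078 or -0.072, Pdia6 to -0.351 or -0.348, Sars to -0.174 or -0.171, Slc3a2 to -0.119 or -0.118 and Eif2ak1 to -0.012 under both. On log2(FPKM + 1) alone, Cars came to -0.17, Derl2 to -0.209 and Bag3 to -0.169. With library sizes only, Asns was -0.036 and Eif2ak1 -0.029. Ppp1r15b was 0.005 without the low-count filter. Leaving out 1 tumor gave log2 fold changes of -0.31 to 0.39 for Herpud1, -0.29 to 0.29 for Eif2ak3, -0.083 to 0.06 for Ppp1r15b, -0.34 to 1.11 for Chac1, -0.42 to 0.19 for Atf3, -0.46 to 0.30 for Trib3, -0.235 to 0.009 for Asns, -0.49 to 0.35 for Pck2, -0.276 to 0.012 for Atf6, -0.663 to 0.006 for Ostc, -0.633 to 0.074 for Spcs2 and -1.026 to 0.066 for Hspe1. Herpud1, Eif2ak3, Ppp1r15b, Atf3, Trib3, Asns, Pck2 and Atf6 changed sign without PBS tumor 3, and Chac1, Ostc, Spcs2, Hspe1 and Ppp1r15b without PBS tumor 1. Chac1 also did so without PBS tumor 2, Herpud1, Eif2ak3 and Ppp1r15b without GB2 tumor 2, and Ppp1r15b without GB2 tumor 3. The cause was not tested. Replicate numbers did not pair the tumors (correlation of deviations 0.03, 0.15 and -0.24 for numbers 1 to 3). With the replicate number as a block, 0 members were called, 8 were below 0, the median was -0.16, Herpud1 (0.086) and Eif2ak3 (0.045) turned positive, Chac1 was 0.53 and Trib3 -0.112, and Pck2 was -0.081. Of the values that kept their sign, Hspa5 (-0.10) and Atf4 (-0.20) shrank without PBS tumor 1 and Dnajb9 (-0.10) without PBS tumor 3.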
